A study of Mus musculus with 20 samples.

Results

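Cytochrome P450 genes of families 1 to 4 were followed in mouse proximal colon organoids, which are cultures of colon crypt epithelium grown in Matrigel. The genes were chosen by name: every probe other than a control whose gene name in the array design reads Cyp, a family number from 1 to 4, a subfamily letter and a gene number. The rule found 99 probes of 39429 on the array, for 77 genes. Of these, 60 genes were well above background, by the flag of the scanner software, on at least 3 of the 20 arrays. The 17 others were Cyp1a2, Cyp2a12, Cyp2a22, Cyp2b9, Cyp2b23, Cyp2c39, Cyp2c50, Cyp2g1, Cyp2j5, Cyp2j11, Cyp3a25, Cyp3a57, Cyp4a29, Cyp4a30b, Cyp4a32, Cyp4f15 and Cyp4x1. The model fit used the 18 arrays of replicated groups, where 58 members passed the same limit among 21424 genes. Cyp2c23 and Cyp4a12a passed only with the wild-type arrays counted and were not tested. Of the 58 fitted genes, 26 were well above background on 18 of 18 arrays and 32 on fewer.

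Organoids came from male mice about 40 days old, per the labels. Wild-type (WT) organoids gave 1 array per medium, and the labels say no more of their genotype. The other cultures carried a heterozygous BrafV600E allele that Cre activates (Braf+/LSL). EV organoids had received the empty lentiviral backbone, so their allele was not activated by Cre. BRAF organoids had received Cre by lentivirus and were analysed 5 months after the oncogene was switched on. Selected organoids carried active BrafV600E and had been grown in base medium, which lacks the niche factors of stem cells. EV, BRAF and selected organoids had lines 1, 2 and 3 each, with the same line numbers across types. Each culture was profiled after 48 h in the medium labelled ENSW and after 48 h in base medium. The culture medium of the protocol held EGF and media conditioned with Noggin, R-spondin and Wnt3a. Nothing in the labels says whether a line is 1 clone or 1 animal, so p-values measure the spread between lines as labelled.

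P450 enzymes are haem proteins, mostly of the endoplasmic reticulum, that insert an oxygen atom into their substrate with electrons passed on by the reductase Por. Families 1 to 3 oxidise drugs, plant compounds, steroids and arachidonic acid, and family 4 mostly hydroxylates fatty acids and eicosanoids at the end of the chain. In the gut they are found mainly in absorptive epithelium. Many are switched on by ligand-bound receptors: Ahr for Cyp1a1 and Cyp1b1, Nr1i3 (CAR) for Cyp2b10, Nr1i2 (PXR) for Cyp3a genes and Ppara for Cyp4a genes.

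On each array 59.6% to 65.2% of the spots passed the background flag, and precision is limited by there being 3 lines in a group. EV organoids shared no slide with BRAF or selected organoids, so slide and type cannot be told apart in any comparison with EV. Both arrays of selected line 1 stood apart from those of lines 2 and 3 on the second principal component (46.4 and 48.6 against -70.1 to -46.1, with 12.3% of the variance). Of 6 epithelial markers, 6 were above background on all arrays, and 4 were lower in base medium in selected organoids than in EV: Epcam (log2 -1.86), Cdh1 (-1.50), Cldn7 (-1.95) and Krt8 (-1.49; adjusted p = 0.000163 to 0.0137). Their part in the P450 results was not tested. The colon marker Cdx2 had mean levels of 4.16 to 5.93 over the 6 groups. Another colon marker, Cdx1, had a mean level of 5.14 in EV and -4.61 in selected organoids in base medium, and 4 of 5 colon markers were lower in the latter. Of markers of other tissues, 3 of 6 for hepatocytes (not Alb, Ttr or Ahsg), 1 of 5 for fibroblasts and 4 of 6 for blood and endothelium passed the limit of 3 arrays. Levels are log2 signals after the array's own 75th percentile was subtracted, so 0 marks a signal at that percentile. They describe 1 probe per gene, and levels of different probes are not compared.

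In EV organoids, most of the fitted P450 genes rose when the niche factors were withdrawn. In base medium 35 of 58 were higher than in ENSW medium and 1, Cyp1b1, was lower (limma, called where the Benjamini-Hochberg adjusted p was under 0.05). Among the 21424 genes tested, 23.5% were higher and 18.7% lower. Among the 58 members, Cyp2c54 and Cyp3a44 passed the filter only with EV arrays in base medium counted, so a rise there was built in. The median log2 difference was 1.90 over the 58 members and 0.19 over all genes. The rise covered Cyp2c, Cyp2d, Cyp2j, Cyp3a13, Cyp4a, Cyp4b1 and Cyp4f genes, and 48 of 58 members (82.8%) were higher in base medium in 3 of 3 EV lines, against 45.2% of all genes. Line 3 in base medium and line 2 in ENSW medium moved this count most: without either array, 21 members were called. With the line number as a replicate block, 25.7% of all genes were higher and 19.8% lower. With a random block for each culture, which pairs its media, these shares were 34.8% and 23.6%. With either block the number of members called stayed within 1.5 times that of the unpaired fit.

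In BRAF organoids no member passed the test between media in the unpaired fit and 20 passed where the media of a culture were paired, and in selected organoids none passed in either fit. In BRAF organoids, 33 of 58 members were higher in base medium in 3 of 3 lines (56.9%, against 27.8% of all genes), with a median log2 difference of 0.70. None passed the adjusted threshold in the unpaired fit, where 1.65% of all genes did (1.07% higher, 0.583% lower) and 16 members had an unadjusted p under 0.05. With a random block for each culture, which pairs its media, 18 were higher and 2, Cyp1a1 and Cyp1b1, were lower (9.95% and 9.14% of all genes). In selected organoids the median log2 difference was -0.05, and 6 of 58 members (10.3%) were higher in base medium in 3 of 3 lines, against 19.7% of all genes. No member was called there, 0 had an unadjusted p under 0.05, and 0 were called with the culture block. Of all genes, 0.00467% were called, and 0.014% were higher with the block. The plot of medium differences gives these values for each gene.

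**Figure D1:**
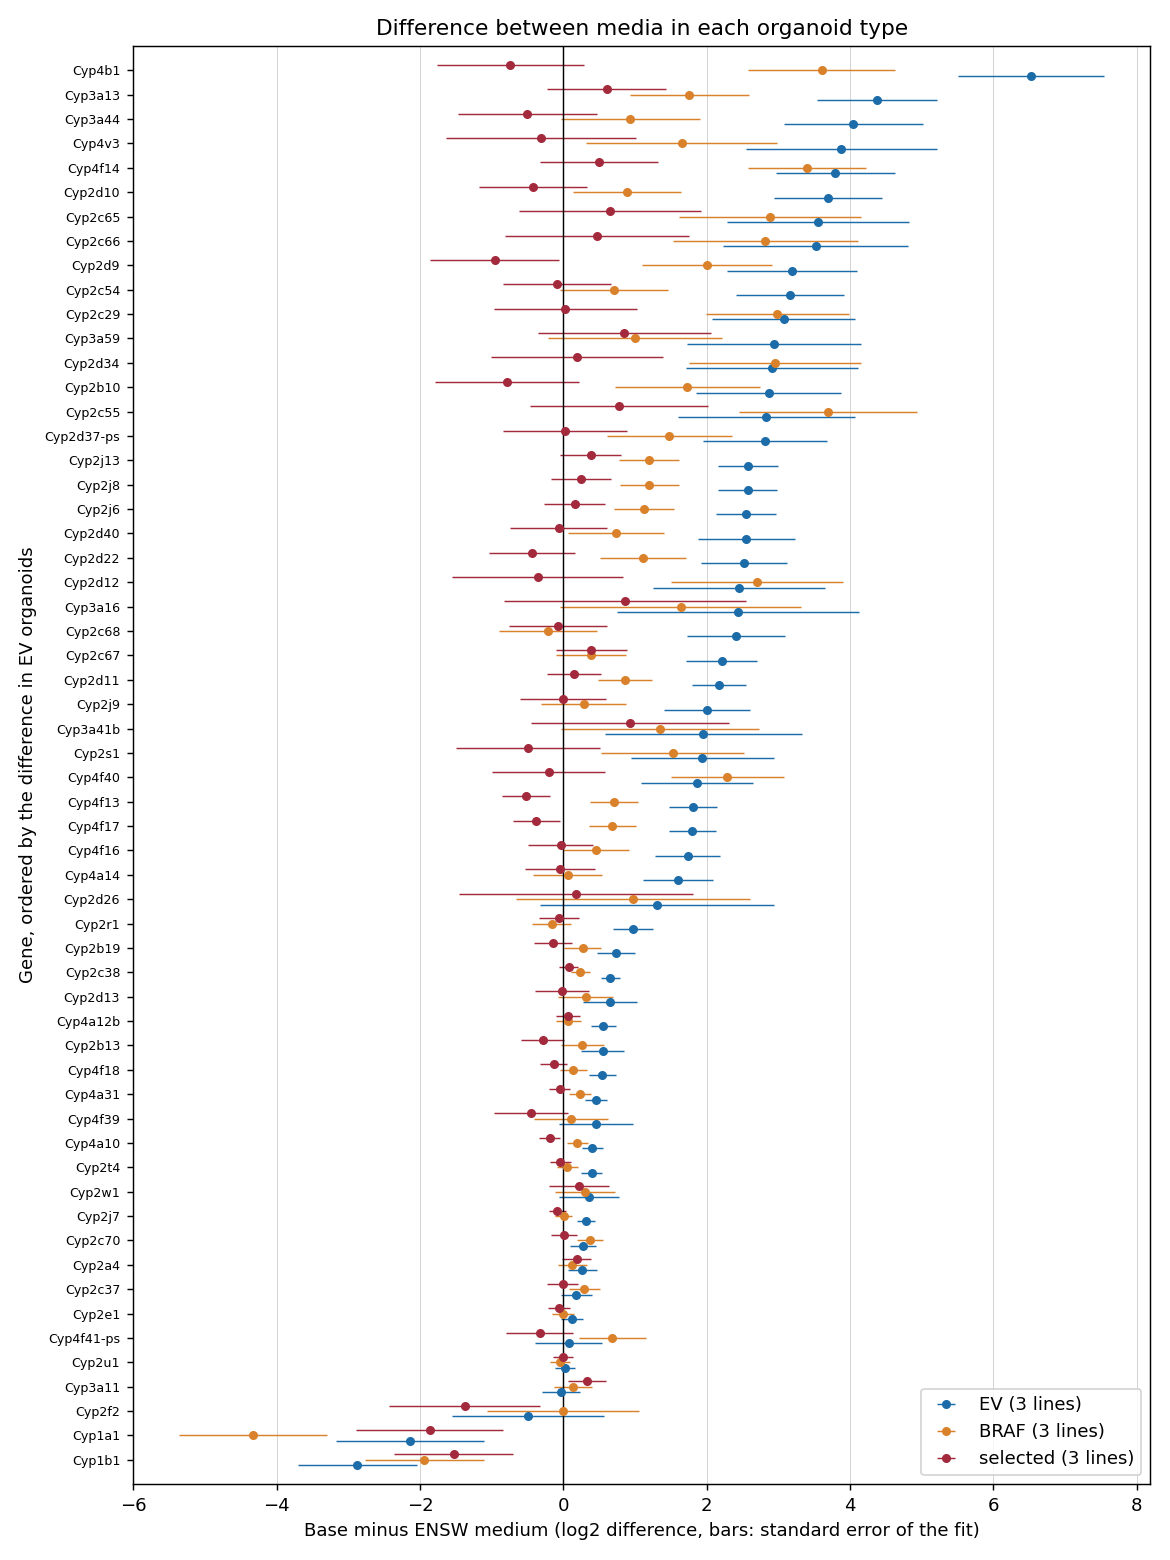
The x axis gives the base minus ENSW difference in log2 units, with the standard error of the fit, for each of 58 P450 genes on the y axis in EV, BRAF and selected organoids (3 lines each). EV points run from -2.88 for Cyp1b1 to 6.52 for Cyp4b1, and selected points lie near 0 for most genes.

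The difference in response was itself tested. Between selected and EV organoids it passed for 14 members, each with a lower response in selected organoids, where 10.5% of all genes had a lower and 13.8% a higher response. Cyp4b1 had the largest of these differences in response (log2 -7.26 ± 1.45, SE, adjusted p = 0.00284), and Cyp3a44, Cyp2d9, Cyp2d10 and Cyp3a13 followed with -4.55 to -3.77. Cyp3a44 and Cyp2c54, also among the 14, passed the filter only with EV arrays counted, so their lower response was built in. With the culture block 40 members passed (24% of all genes lower), and without both arrays of selected line 1, 8 did. Between BRAF and EV organoids, 0 of 58 passed in the unpaired fit (3.35% of all genes did, 0.551% of them in the lower direction as a share of all genes, and 15 members had an unadjusted p under 0.05), and 15 passed with the culture block, each lower in BRAF (8.11% of all genes). Between selected and BRAF organoids 0 passed (0% of all genes, with 6 members at an unadjusted p under 0.05), and 1, Cyp4b1, passed with the culture block (adjusted p = 0.0342; 0.681% of all genes higher and 0.938% lower).

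In base medium many of these genes were lower in BRAF than in EV organoids, and more were lower in selected organoids. In BRAF organoids 26 of 58 members were lower than in EV and 1, Cyp4a10, was higher (all genes: 13.2% lower, 17.8% higher), with a median log2 difference of -1.59 against 0.03 over all genes. Cyp4a10 was higher by its brightest probe only (log2 0.48). Another of its probes, also above background on 18 of 18 arrays, gave -0.06. In selected organoids 31 were lower and 1, Cyp1b1, was higher (all genes: 23.2% lower, 25% higher). Among the 31, Cyp2c54, Cyp2c68, Cyp2d37-ps and Cyp3a44 passed the filter only with EV arrays counted, so their lower level was built in. Any lower level of these genes in BRAF organoids was favoured by the filter in the same way. The median over the 58 members in selected organoids was -2.80, or -2.46 with genes below background set to their bound, against 0.02 over all genes. Of the 32 calls between selected and EV organoids, 31 held without any 1 array, and the exception was Cyp4v3. Both comparisons use the same EV arrays. Mean levels in base medium ran in the order EV, BRAF, selected from high to low for 37 of 58 members (63.8%), against 30.6% of all genes. The 58 include the genes that the filter kept through EV organoids, for which EV was bound to rank high.

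Selected and BRAF organoids differed directly as well. In base medium 14 members were lower in selected organoids and 1, Cyp1b1, was higher (5.14% and 4.66% of all genes, 9.8% in all). The only slide that held both types, with 1 line of each, gave the same direction for 15 of these 15 genes. Both lines also entered the comparison that called these genes. The agreement, and the values of this slide given for single genes below, are therefore no separate check. Without BRAF line 3 in base medium 4 members were called, without selected line 1 in base medium 7, and without selected line 3 in base medium 10. In ENSW medium 1 member, Cyp4f14, was lower (0.453% of all genes) and 7 members had an unadjusted p under 0.05. Without both arrays of selected line 1, Cyp4f14 was again the 1 member called.

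In ENSW medium, which holds the niche factors, BRAF organoids had 10 members lower and 6 higher than EV (1.41% and 4.92% of all genes, 6.33% in all). None of these 16 calls held without every single array in turn: the count was 0 without EV line 1, 1 without BRAF line 2, 2 without EV line 3 and 6 without BRAF line 1. Selected organoids had 20 lower and 6 higher (5.12% and 8.68% of all genes). That count was 9 without EV line 1, 10 without EV line 3, and 15 to 23 without each of the other arrays. The 6 higher genes in BRAF were Cyp2b19, Cyp2c38, Cyp2j7, Cyp2r1, Cyp4a10 and Cyp4a12b, with log2 differences of 0.44 to 1.45. The 6 higher genes in selected organoids were Cyp2c38, Cyp2j7, Cyp2r1, Cyp4a10, Cyp4a31 and Cyp4f18, with 0.41 to 1.08.

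**Figure D2:**
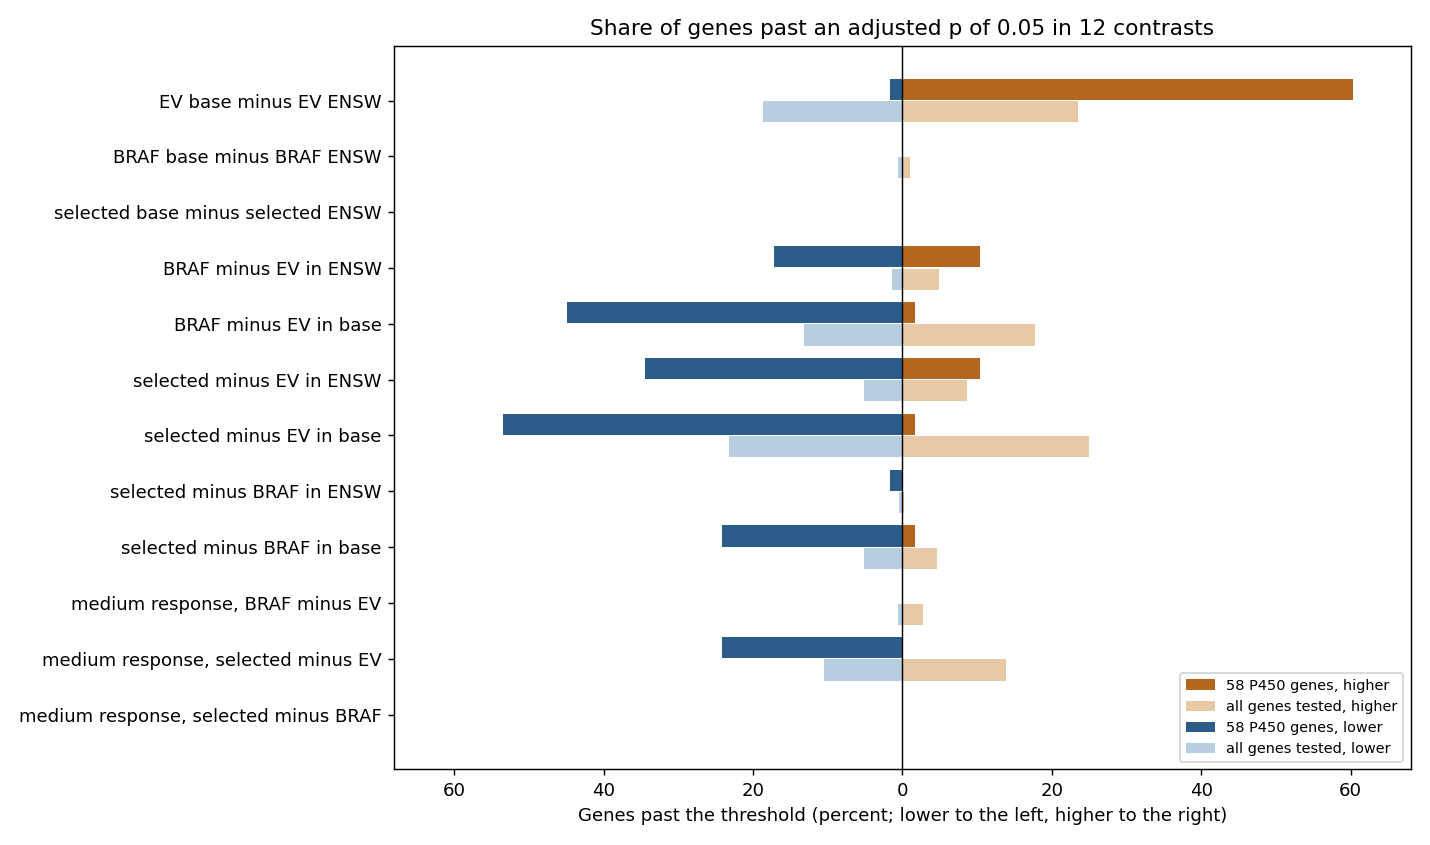
Bars give the percent of genes past an adjusted p of 0.05 in 12 contrasts, for the 58 P450 genes and for all genes tested, with lower genes to the left and higher genes to the right of 0. The P450 bars lean to the higher side for EV base minus EV ENSW (35 of 58) and to the lower side for selected minus EV in base medium (31 of 58).

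Several cell-type markers moved along with these genes. The summed log2 level of 8 colonocyte markers, which mark mature absorptive cells, was 4.91 to 7.21 in EV lines in ENSW medium and 9.69 to 10.84 in base medium. It was 2.67 to 3.38 and 5.86 to 7.83 in BRAF organoids, and 0.03 to 1.17 and -0.03 to 2.08 in selected organoids. Of the 8 markers, 7 rose in EV organoids in base medium, and 8 were lower in base medium in selected organoids than in EV. Slc26a3, an ion exchanger of surface colonocytes, was not well above background on any selected array. The summed level of 6 goblet cell markers was 4.51 to 7.45 in EV lines in ENSW medium and 8.17 to 9.17 in base medium. Of these markers Clca1, Fcgbp and Zg16 rose in EV organoids, and Muc2, Tff3 and Spink4 were not called. In BRAF lines the sum overlapped between media (1.62 to 6.24 in ENSW and 2.97 to 5.36 in base medium). In selected organoids in base medium it was -1.80 to -0.15. The summed level of 6 cycling markers went the other way, from 6.0 to 6.15 in EV lines in ENSW medium to 2.48 to 3.29 in base medium, and stayed at 5.55 to 6.34 in selected organoids in base medium. The part of these cell types in the P450 results was not tested, and in bulk RNA fewer cells of a type and less RNA per cell cannot be told apart.

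**Figure D3:**
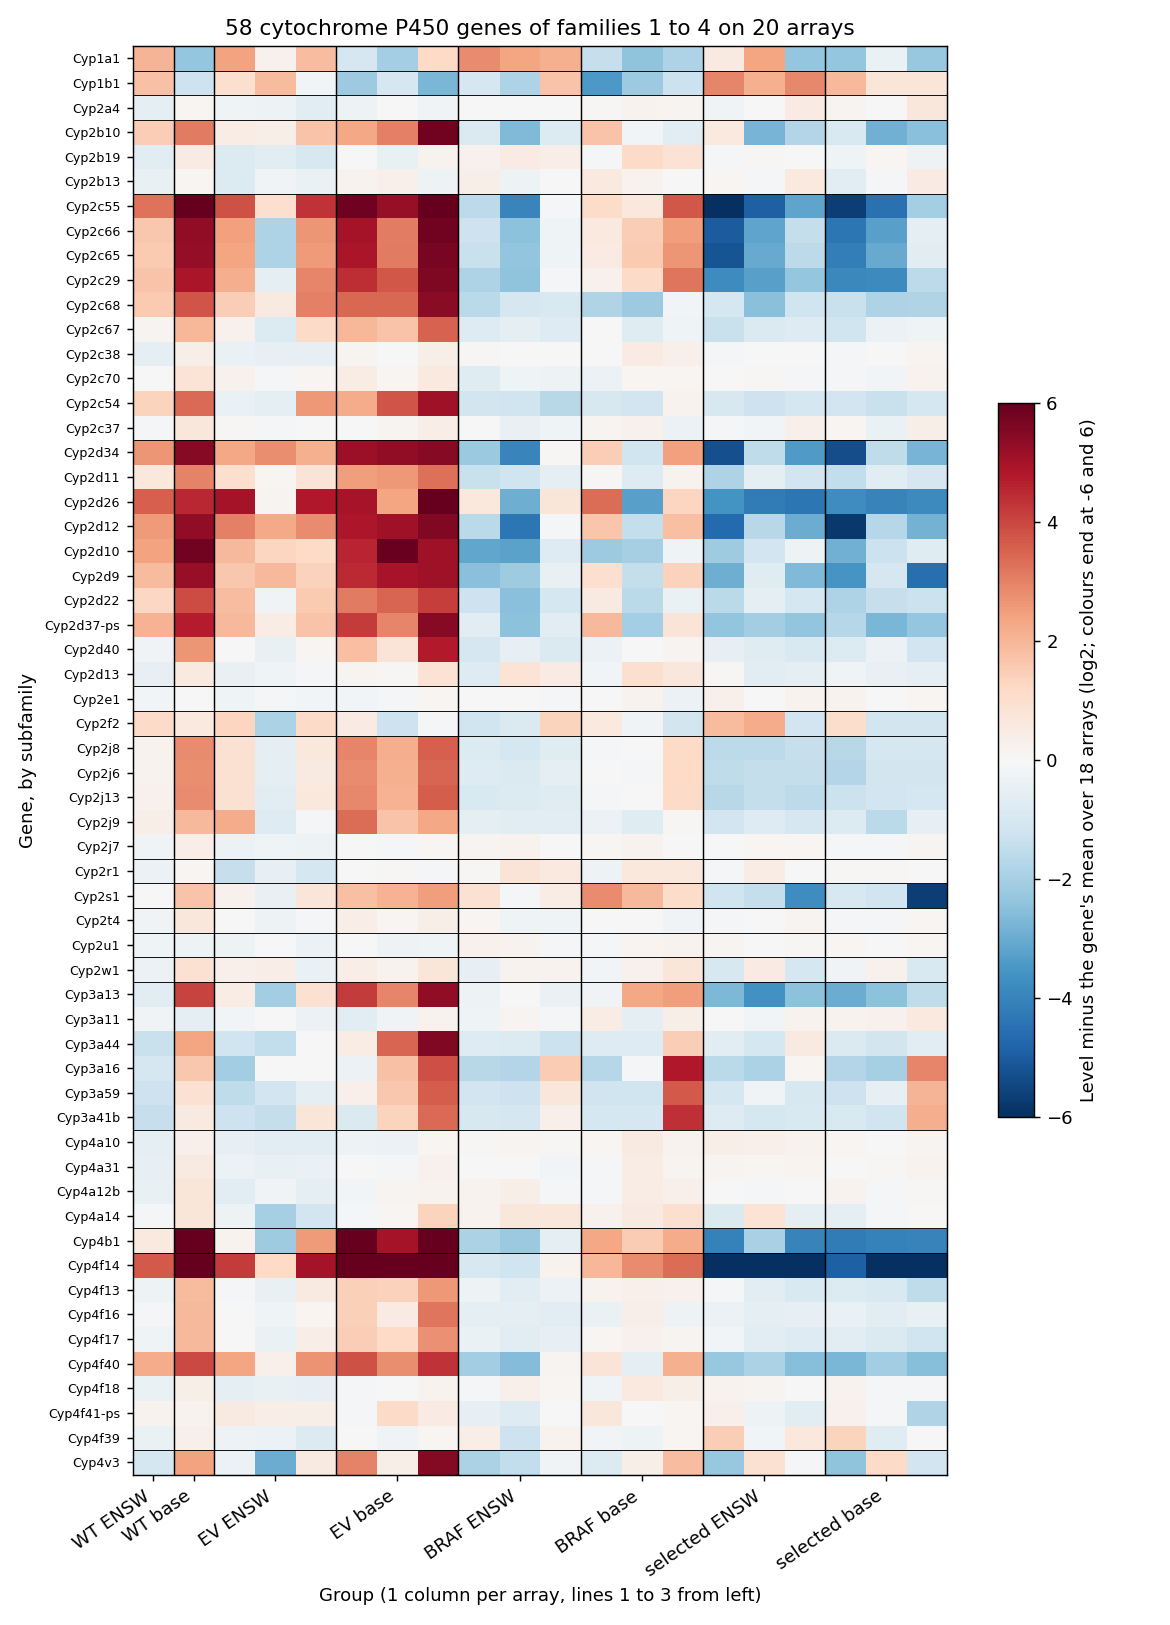
Each row is 1 of 58 P450 genes, grouped by subfamily, and each column 1 of 20 arrays, with lines 1 to 3 from left to right in a group. Colour gives the level minus the gene's mean over the 18 replicated arrays (log2), red above and blue below. EV and WT arrays in base medium are red for most Cyp2c, Cyp2d, Cyp2j and Cyp4f genes, selected arrays are blue, and Cyp1b1 runs the other way.

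Within the members the size of the change varied widely. Group means of a gene spanned more than 5 log2 units in 18 of 58 members (31.0%, against 2.53% of all genes) and less than 1 in 16 members (27.6%, against 46.2%). A span that ends in values below background is only a lower limit. In 42 members at least 1 of the 12 contrasts was called, and in 16 none was.

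Cyp1a1 and Cyp1b1, the family 1 enzymes that oxidise polycyclic aromatic hydrocarbons and, in the case of Cyp1b1, estradiol, departed from the main pattern. Cyp1a1 levels in EV lines 1 to 3 were -2.57, -4.74 and -3.14 in ENSW medium and -6.03, -7.04 and -3.79 in base medium. In BRAF lines they were -2.19, -2.62 and -2.86 in ENSW medium and -6.39, -7.40 and -6.87 in base medium. In selected lines they were -4.47, -2.65 and -7.30, and -7.32, -5.42 and -7.28. All 3 BRAF arrays in ENSW medium were above background and none of those in base medium. The BRAF difference between media, log2 -4.33 ± 1.03 (SE), had an adjusted p of 0.0505 in the unpaired fit and 0.00166 with the culture block. In the WT cultures the levels were -2.94 in ENSW medium and -7.30, below background, in base medium.

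Cyp1b1 levels were -2.11, -1.13 and -3.22 in EV lines in ENSW medium and -5.25, -4.06 and -5.79 in base medium. BRAF lines had -4.06, -4.89 and -1.32, and -6.49, -5.23 and -4.36. Selected lines had -0.11, -0.93 and -0.18, and -1.12, -2.34 and -2.33. The EV groups did not overlap, and every selected array in base medium lay above every EV and BRAF array in that medium. Cyp1b1 fell in EV organoids in base medium (log2 difference -2.88 ± 0.83, adjusted p = 0.0127) and was higher in selected organoids in that medium than in EV (3.1 ± 0.83, adjusted p = 0.00684) and BRAF organoids (3.43 ± 0.83, adjusted p = 0.02). The fall in EV lost its call without EV line 3 in base medium (adjusted p = 0.0606), and the difference from BRAF without selected line 1 in base medium (0.0765). On the slide that held both types, the Cyp1b1 level was 4.16 log2 units higher in selected line 3 than in BRAF line 1 in base medium.

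Promoter windows of genes that the results turn on are shown here from RefSeq (build GRCm38.p6), each with the 250 bases before the annotated start in 5′ to 3′ direction of the gene. Capitals mark TATAAA, found with its reverse complement, and, in Cyp1a1 and Cyp1b1, also GCGTG or its reverse complement CACGC, the core of the site that Ahr is known to bind. Cyp1a1 lies at chr9:57697363-57697612 on the plus strand and Cyp1b1 at chr17:79715062-79715311 on the minus strand.
Cyp1a1: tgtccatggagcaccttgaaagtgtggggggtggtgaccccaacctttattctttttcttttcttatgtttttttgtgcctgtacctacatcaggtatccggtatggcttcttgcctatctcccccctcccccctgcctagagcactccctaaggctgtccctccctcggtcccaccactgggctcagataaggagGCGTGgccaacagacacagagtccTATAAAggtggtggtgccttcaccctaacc
Cyp1b1: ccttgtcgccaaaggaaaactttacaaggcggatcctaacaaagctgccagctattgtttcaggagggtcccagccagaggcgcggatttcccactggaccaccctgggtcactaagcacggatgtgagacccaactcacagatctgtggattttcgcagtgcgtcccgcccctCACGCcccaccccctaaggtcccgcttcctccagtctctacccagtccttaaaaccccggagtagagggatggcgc

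Of the 77 members, 59 had a promoter window (250 bases before to 50 after the start). The longer Ahr motif TNGCGTG, searched on both strands, was in 1 of 59 member windows (1.69%, Cyp2c68) and in 5.84% of the windows of 27025 genes. The direct repeat with a spacer of 1 base (DR1), which nuclear receptors bind, was in 0 of 59 and in 0.0481% of all genes. GCGTG, which overlaps the longer Ahr motif, was in 12 of 59 (20.3%) against 35.2% of all genes. TATAAA was in 25 of 59 (42.4%) against 15.7% of all genes. These last motifs were chosen after the data were seen. TATAAA was present in 44.0% of the 25 member windows of genes lower in base medium in selected organoids than in EV and in 42.1% of the 19 windows of other fitted members. A match of letters is a description and shows no binding.

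Cyp2c genes encode arachidonic acid oxygenases and drug-oxidising enzymes, and Cyp2c55, Cyp2c65 and Cyp2c66 are known from the mouse gut. A run of 10 fitted Cyp2c members lies at chr19:39116674-40228028 (mm9, the build of the probe coordinates). The promoter windows of these 3 neighbours are shown, since their levels are described next, at chr19:39006769-39007018, chr19:39060756-39061005 and chr19:39113648-39113897 (GRCm38.p6, plus strand), with TATAAA in capitals.
Cyp2c55: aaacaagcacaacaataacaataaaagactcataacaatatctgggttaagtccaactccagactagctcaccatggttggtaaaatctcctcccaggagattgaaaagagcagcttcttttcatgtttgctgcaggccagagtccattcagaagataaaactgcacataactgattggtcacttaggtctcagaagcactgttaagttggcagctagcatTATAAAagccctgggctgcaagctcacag
Cyp2c65: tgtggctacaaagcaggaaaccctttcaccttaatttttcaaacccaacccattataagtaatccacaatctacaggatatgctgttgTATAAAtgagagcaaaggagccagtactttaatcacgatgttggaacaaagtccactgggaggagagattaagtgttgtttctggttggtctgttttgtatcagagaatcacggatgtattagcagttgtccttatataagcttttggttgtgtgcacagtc
Cyp2c66: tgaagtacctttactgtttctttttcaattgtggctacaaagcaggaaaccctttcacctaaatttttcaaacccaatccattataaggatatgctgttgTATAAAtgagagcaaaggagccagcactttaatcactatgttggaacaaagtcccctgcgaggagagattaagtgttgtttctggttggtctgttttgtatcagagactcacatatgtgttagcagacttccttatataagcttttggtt
In a global alignment, the Cyp2c65 and Cyp2c66 windows shared 208 of 279 aligned positions (74.6%), and the Cyp2c55 window shared 54.9% and 51.9% with them.

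Cyp2c55 levels were 4.32, 1.54 and 4.83 in EV lines in ENSW medium and 6.37, 5.75 and 7.08 in base medium. BRAF lines had -1.04, -3.44 and 0.42, and 1.63, 1.14 and 4.23. Selected lines had -5.84, -4.40 and -2.65, and -5.13, -3.94 and -1.51. In each medium the 3 types did not overlap except that selected line 3 lay above BRAF line 2 in ENSW medium. In base medium Cyp2c55 was lower in BRAF than in EV organoids (log2 difference -4.06 ± 1.24, adjusted p = 0.0235) and lower in selected than in EV (-9.93 ± 1.24, adjusted p = 1.96e-05) and BRAF organoids (-5.86 ± 1.24, adjusted p = 0.0102). Its rise in base medium was 2.83 ± 1.24 in EV organoids (adjusted p = 0.081 unpaired, 0.00456 with the culture block). In BRAF organoids it was 3.69 ± 1.24 (0.134 unpaired, 0.00552 with the block). In selected organoids the difference between media was 0.77 ± 1.24 (adjusted p = 0.94 with the block). Each of these errors is the SE of the unpaired fit, not of the block.

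Cyp2c65 and Cyp2c66 were also lowest in selected organoids. Their rises in EV lines 1 to 3 nearly matched (log2 2.54, 4.99 and 3.14, and 2.52, 4.91 and 3.13). Whether their probes read the same transcript was not tested, and the genes are counted separately. Cyp2c65 levels were 1.49, -2.76 and 1.69 in EV lines in ENSW medium and 4.02, 2.23 and 4.82 in base medium, against -5.01, -3.92 and -1.54 in selected lines in base medium. The selected and EV groups in base medium did not overlap, and the log2 differences were -7.18 ± 1.27 for Cyp2c65 (adjusted p = 0.000322) and -7.33 ± 1.29 for Cyp2c66 (adjusted p = 0.000314). In BRAF lines in base medium Cyp2c65 had -0.38, 0.70 and 1.74, between the other types, but the difference from EV missed the threshold for both genes (-3.0 ± 1.27, adjusted p = 0.0855, and -3.09 ± 1.29, adjusted p = 0.0824). Cyp2c29, an epoxygenase of arachidonic acid, had levels of 0.92, 0.18 and 2.06 in EV, -3.28, -2.39 and -0.33 in BRAF and -7.39, -7.37 and -5.08 in selected lines in base medium, where 2 of the 3 selected arrays were below background. It was lower in selected than in EV organoids by a log2 difference of -7.67 ± 0.99 (adjusted p = 2.64e-05).

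Of the 10 Cyp2c genes in the fit, 7 were higher in EV organoids in base than in ENSW medium, and 7 were lower in base medium in selected organoids than in EV. Cyp2c37, Cyp2c38 and Cyp2c70 were the exceptions in base medium, with group means that spanned 0.43, 0.74 and 0.80 log2 units. Cyp2c70, which in mice makes muricholic acids from other bile acids, had mean levels of -3.50 to -2.70. Cyp2c68 and Cyp2c54 were not well above background on any selected array, so in base medium they were at least 27.3-fold and at least 6.57-fold lower than in EV organoids. Cyp2c54 was above background on 4 of the 18 fitted arrays, all of them EV, and Cyp2c68 on 7, of which 6 were EV, so both passed the filter through EV organoids and had to be lower elsewhere. Cyp2c54 passed only with EV arrays in base medium counted, so a rise in that medium was built in as well. The bound compares the EV mean with a floor for the dim group, which is, per array, the lowest signal that still passed the background flag or the probe's own signal where that was higher. The probes of Cyp2c67 and Cyp2c68 share 55 of 59 overlapping bases, and stretches of 30 bases from them are given with the differing bases in capitals, because such probes may read each other's transcripts (chr19:39683429-39683488 and chr19:39763420-39763479, mm9).
Cyp2c67: acAcagtcccagAaattccatctatattcc
Cyp2c68: acCcagtcccagGaattccatctatattcc

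Cyp2d genes encode enzymes related to human CYP2D6, which oxidises many drugs, and Cyp2d9 is known as a testosterone hydroxylase of male mouse liver. Their 10 fitted members lie in 1 run at chr15:82204377-82620634 (mm9), and 9 of the 10 were lower in base medium in selected organoids than in EV. The exception was Cyp2d13, with mean levels of -2.81 to -1.91 in the 6 groups. Cyp2d34 levels were 2.43, 2.92 and 2.24 in EV lines in ENSW medium and 5.25, 5.46 and 5.60 in base medium. BRAF lines had -2.10, -3.83 and 0.20, and 1.58, -1.07 and 2.60. Selected lines had -5.17, -1.39 and -3.27, and -5.19, -1.39 and -2.68, with line 1 below background by this probe. A dimmer probe of Cyp2d34 was above background on 18 of 18 arrays and had the same directions, with differences from EV in base medium of -6.25 in selected and -4.07 in BRAF lines. EV arrays did not overlap with BRAF or selected arrays in either medium. In base medium the log2 difference was -4.40 ± 1.20 between BRAF and EV (adjusted p = 0.0135) and -8.53 ± 1.20 between selected and EV organoids (adjusted p = 5.13e-05).

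Cyp2d10 was already at its low level in BRAF organoids. Its levels in base medium were 2.32, 3.71 and 2.84 in EV, -4.43, -4.21 and -2.49 in BRAF and -5.10, -3.52 and -2.93 in selected lines. BRAF and selected arrays overlapped, and both lay below every EV array. The log2 differences from EV were -6.67 ± 0.75 in BRAF (adjusted p = 6.79e-05, the smallest among the members in that comparison) and -6.81 ± 0.75 in selected organoids (adjusted p = 7.82e-06). Cyp2d11 had the same order, with levels of 4.21, 4.30 and 5.03 in EV, 1.78, 0.91 and 1.90 in BRAF and 0.21, 1.06 and 0.71 in selected lines in base medium. Its log2 differences from EV were -2.98 ± 0.38 (adjusted p = 0.000125) and -3.85 ± 0.38 (adjusted p = 3.54e-06).

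Cyp2d26 varied between lines within a type. Its levels in base medium were 3.84, 1.27 and 5.49 in EV, 2.25, -4.36 and 0.18 in BRAF and -4.81, -5.11 and -4.90 in selected lines. BRAF line 2 lay just above the selected lines and BRAF line 1 within the EV range. The difference between BRAF and EV (log2 -4.18 ± 1.63) had an adjusted p of 0.066, and the difference between selected and EV (-8.47 ± 1.63) one of 0.000657. Between media the EV difference was 1.31 ± 1.63 (adjusted p = 0.559). The pseudogene Cyp2d37-ps was below background on every selected array and in base medium at least 30.4-fold lower there than in EV organoids. This gene too passed the filter through EV organoids, with 6 of its 8 arrays above background.

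**Figure D4:**
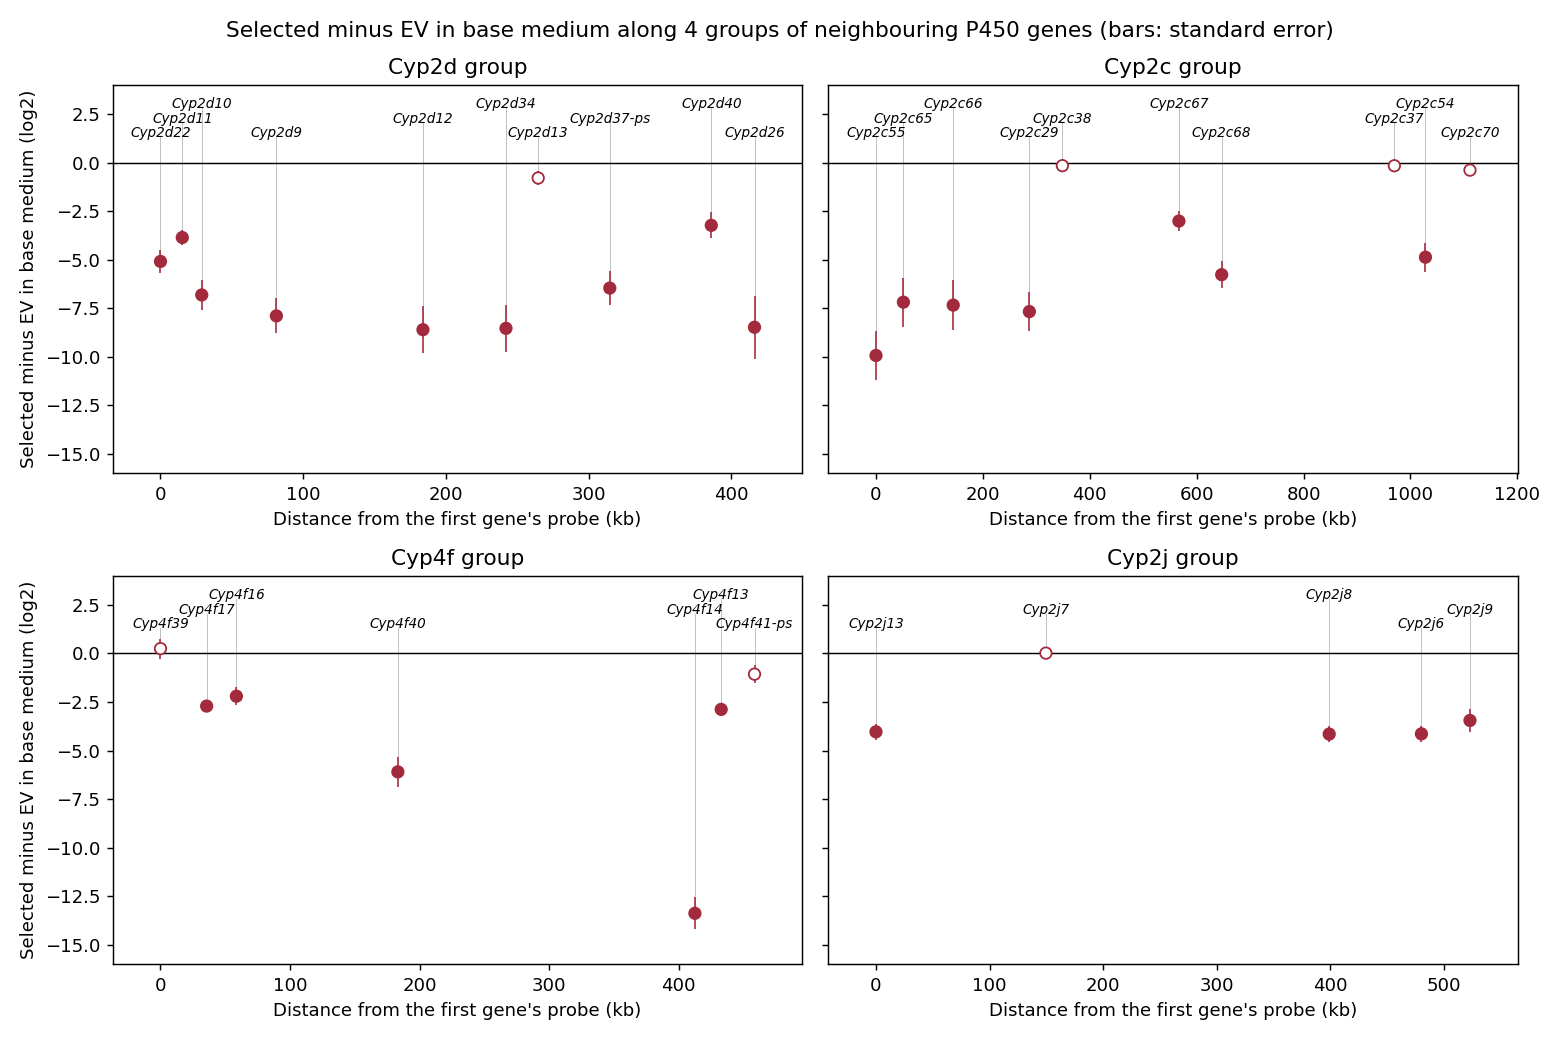
Points give the selected minus EV difference in base medium (log2, with the standard error of the fit) against the distance in kb from the first gene's probe, for the fitted members of the Cyp2d, Cyp2c, Cyp4f and Cyp2j groups of neighbouring genes. Filled points passed an adjusted p of 0.05: 9 of 10 Cyp2d, 7 of 10 Cyp2c, 5 of 7 Cyp4f and 4 of 5 Cyp2j genes, and the open points lie closer to 0 than the filled ones.

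Cyp2j genes encode arachidonic acid epoxygenases. At chr4:95712305-96235340 (mm9), 5 of 5 were higher in EV organoids in base medium and 4 of 5 were lower in selected than in EV organoids in that medium, with Cyp2j7 as the exception (group means within 0.44 log2 units). Cyp2j6 levels were 1.15, -0.35 and 0.81 in EV lines in ENSW medium and 3.1, 2.40 and 3.76 in base medium. BRAF lines had -0.54, -0.63 and -0.29, and 0.28, 0.16 and 1.47, and selected lines had -1.25, -1.18 and -1.19, and -1.50, -0.83 and -0.83. In base medium the 3 types did not overlap. The Cyp2j6 log2 differences in base medium were -2.45 ± 0.42 between BRAF and EV (adjusted p = 0.000778), -4.14 ± 0.42 between selected and EV (4.44e-06) and -1.69 ± 0.42 between selected and BRAF organoids (0.0227). The last of these was lost without both arrays of selected line 1. Cyp2j8 gave nearly the same values, with log2 differences of -2.56, -4.15 and -1.59. Cyp2j13 did so by its brighter probe alone: its other probe differed by 0.35 between selected and EV organoids in base medium, where the brighter one gave -4.04. The rises of these genes in EV lines 1 to 3 nearly matched. They were log2 1.95, 2.75 and 2.95 for Cyp2j6, 2.01, 2.76 and 2.94 for Cyp2j8, and 1.98, 2.74 and 3.01 for Cyp2j13. Whether their probes read the same transcript was not tested, and the genes are counted separately. The probe of Cyp2j8 shares 32 of 39 overlapping bases with that of Cyp2j7.

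Other family 2 genes behaved in several ways. Cyp2b10, the classic target of Nr1i3, had levels of -2.58, -1.88 and 0.88 in EV, -3.17, -5.09 and -5.56 in BRAF and -5.83, -7.79 and -7.39 in selected lines in base medium. It was below background on the 3 selected arrays and at least 18.8-fold lower there than in EV organoids (fitted log2 difference -5.81 ± 1.01, adjusted p = 0.000293). Nr1i3 itself was not well above background on 3 arrays. The related Cyp2b19, an epoxygenase known from skin, was 1.17 ± 0.26 log2 units higher in BRAF than in EV organoids in ENSW medium (adjusted p = 0.0206), a call lost without BRAF line 2 (0.09).

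Cyp2s1, an epithelial P450 found mostly outside the liver, was kept in BRAF organoids and reduced in selected ones. Its levels were 3.01, 2.33 and 3.50 in EV lines in ENSW medium and 4.57, 4.84 and 5.25 in base medium. BRAF lines had 3.66, 2.69 and 3.21, and 5.60, 4.69 and 3.85. Selected lines had 1.54, 1.34 and -0.99, and 1.77, 1.55 and -2.91, so every selected array lay below every EV and BRAF array of the same medium, and line 3 was the lowest. In base medium the log2 difference was -0.17 ± 1.00 between BRAF and EV (adjusted p = 0.917), -4.75 ± 1.00 between selected and EV (adjusted p = 0.00129) and -4.58 ± 1.00 between selected and BRAF organoids (adjusted p = 0.012). On the slide that held both types, the difference of selected line 3 from BRAF line 1 in base medium was -8.51 log2 units.

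Cyp2r1, a vitamin D hydroxylase, had levels of -1.77, -0.89 and -1.45 in EV lines in ENSW medium and -0.42, -0.32 and -0.45 in base medium. In BRAF lines it had -0.32, 0.38 and 0.17 in ENSW medium, above every EV array in that medium, and in selected lines -0.47, 0.03 and -0.42. It was higher than in EV by a log2 difference of 1.45 ± 0.27 in BRAF (adjusted p = 0.00791) and 1.08 ± 0.27 in selected organoids (adjusted p = 0.0204), both in ENSW medium. In each case 1 or more leave-outs ended the call, at an adjusted p of up to 0.0504 and 0.0958 without EV line 1. 

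Other members had nearly level signals by their brightest probe. Cyp2u1, a fatty acid hydroxylase, had the brightest member probe, with levels of 5.26 to 5.88 on the 18 replicated arrays and of 5.35 and 5.32 in WT organoids. Cyp2e1, which oxidises ethanol and small solvents, lay at -0.33 to 0.30 on those 18 arrays. Neither was called in any of the 12 contrasts, and for Cyp2e1 the selected minus EV difference in base medium was log2 0.13 ± 0.15. A less bright probe of Cyp2u1 gave -0.23 for that difference, where the brighter one gave 0.28. In ENSW medium the less bright probe was not as level. It gave 0.91 for selected minus EV and 1.20 for selected minus BRAF, against 0.31 and -0.06. A less bright probe of Cyp2e1 gave 0.57 for selected minus EV in ENSW medium, against 0.32. Cyp2a4, Cyp3a11, Cyp2d13 and Cyp2w1 also had group means within 1 log2 unit by the brightest probe of each.

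Family 3 enzymes oxidise many drugs and steroids, and Cyp3a13 is the member best known from mouse intestine. Its levels were -0.33, -2.86 and 0.13 in EV lines in ENSW medium and 3.40, 2.15 and 4.51 in base medium. BRAF lines had -1.09, -0.76 and -1.17, and -0.99, 1.55 and 1.70. Selected lines had -3.46, -4.41 and -3.27, and -3.77, -3.26 and -2.30. In base medium no 2 types overlapped, and in ENSW medium BRAF lines lay within the EV range. Cyp3a13 rose in EV organoids (log2 difference 4.37 ± 0.83, adjusted p = 0.00084), and in base medium it was lower in BRAF than in EV (-2.60 ± 0.83, adjusted p = 0.0296) and lower in selected than in BRAF organoids (-3.86 ± 0.83, adjusted p = 0.0114). Both of the latter calls were lost without a single array, at an adjusted p of 0.139 without BRAF line 1 and 0.0587 without BRAF line 2. Another Cyp3a13 probe, above background on 18 of 18 arrays, had the same directions with smaller differences. It gave log2 3.53 for the rise in EV organoids. In base medium it gave -2.21 for BRAF minus EV and -1.63 for selected minus BRAF. Selected minus EV there was -3.84, against -6.46 by the brighter probe.

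A group of 5 Cyp3a genes at chr5:146197274-146920697 (mm9) had a pattern by line. Cyp3a16 levels in base medium were -6.25, -4.16 and -2.05 in EV, -7.62, -6.01 and -1.12 in BRAF and -7.67, -7.91 and -2.98 in selected lines. Cyp3a41b levels in base medium were -7.27, -5.07 and -3.02, -7.49, -7.42 and -2.02, and -7.35, -7.60 and -4.23 in the same order. Line 3 was the highest line of each type for both genes in base medium, and so it was for Cyp3a59 (-2.77, -2.71 and -4.34). The 3 genes were called in none of the 12 contrasts. Cyp3a44 had -6.32, -3.25 and -1.20 in EV lines in base medium and was below background in EV lines in ENSW medium, which made its rise at least 4.66-fold (adjusted p = 0.00408). It was above background on 3 of the 18 arrays, 2 of them EV arrays in base medium, so the filter kept it through that group. Its probe shares 46 of 53 overlapping bases with that of Cyp3a41b. Cyp3a11, the main Cyp3a gene of mouse liver, stayed at -1.55 to -0.32 by its brightest probe. A dimmer probe, above background on 7 of 18 arrays, was not level. Between media it gave log2 1.59 in EV and 2.10 in BRAF organoids, where the brightest probe gave -0.03 and 0.13. For selected minus EV in base medium it gave -1.09, against 0.56.

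In family 4, Cyp4f14, which hydroxylates leukotriene B4 at its chain end, gave the largest differences of all members. Its levels were 3.67, 0.66 and 4.45 in EV lines in ENSW medium and 6.78, 5.77 and 7.61 in base medium. BRAF lines had -1.50, -1.72 and -0.34, and 1.49, 2.32 and 2.83. Selected lines had -7.10, -7.34 and -7.03, and -5.43, -7.56 and -7.00, and all 6 selected arrays were below background. In each medium the 3 types did not overlap, and the WT levels, 3.16 and 6.94, lay among the EV levels. Cyp4f14 was at least 319-fold lower in selected than in EV lines in ENSW medium and at least 4530-fold lower in base medium (fitted log2 difference -13.38 ± 0.83, adjusted p = 1.24e-07). Against BRAF organoids it was at least 18.5-fold lower in ENSW and at least 200-fold lower in base medium (adjusted p = 0.00321 and 2.7e-05). BRAF organoids were lower than EV by log2 -4.11 ± 0.83 in ENSW medium (adjusted p = 0.0113) and -4.50 ± 0.83 in base medium (adjusted p = 0.00121), the former lost without EV line 1 (0.0635). The rise in base medium was 3.79 ± 0.83 in EV (adjusted p = 0.00221) and 3.40 ± 0.83 in BRAF organoids (0.0555 unpaired, 0.00167 with the culture block).

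The Cyp4f14 promoter window, chr17:32917357-32917606 on the minus strand (GRCm38.p6), is shown for comparison with the Cyp2c windows: it holds no TATAAA, and its GC content is 52.8%, where those of Cyp2c55, Cyp2c65 and Cyp2c66 hold 42.4%, 39.6% and 37.6%.
Cyp4f14: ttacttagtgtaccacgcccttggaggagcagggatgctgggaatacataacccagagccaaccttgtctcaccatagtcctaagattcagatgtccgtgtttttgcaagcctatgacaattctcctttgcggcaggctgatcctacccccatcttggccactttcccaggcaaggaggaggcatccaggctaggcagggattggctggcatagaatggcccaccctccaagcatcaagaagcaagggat

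Among the 7 fitted Cyp4f genes at chr17:32629616-33088284 (mm9), 5 were lower in base medium in selected organoids than in EV. Cyp4f40 was below background on every selected array and at least 21.5-fold lower there. Cyp4f13 changed less but evenly between lines, with levels of 1.74, 1.70 and 2.93 in EV, 0.54, 0.61 and 0.59 in BRAF and -0.49, -0.60 and -1.20 in selected lines in base medium. Its log2 difference was -2.88 ± 0.34 between selected and EV (adjusted p = 1.17e-05) and -1.34 ± 0.34 between selected and BRAF organoids (adjusted p = 0.0234). Cyp4f18, which oxidises leukotriene B4 in mouse leukocytes and lies on chromosome 8, was higher in selected than in EV organoids in ENSW medium by 0.65 ± 0.19 (adjusted p = 0.036), a call lost without EV line 1 (0.121).

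Cyp4b1, a fatty acid hydroxylase that also activates some toxins, had the largest rise with niche factor withdrawal. Its levels were -3.31, -5.63 and -0.96 in EV lines in ENSW medium and 3.23, 1.48 and 4.97 in base medium. BRAF lines had -5.41, -5.74 and -4.11, and -1.19, -1.99 and -1.27. Selected lines had -7.57, -5.46 and -7.54, and -7.69, -7.58 and -7.50, and 5 of the 6 arrays were below background. Groups of different type did not overlap in base medium. The rise in EV organoids was log2 6.52 ± 1.02 (adjusted p = 0.000193, the smallest among the members), and in BRAF organoids it was 3.60 ± 1.02 (0.088 unpaired, 0.00266 with the culture block). In base medium Cyp4b1 was at least 403-fold lower in selected than in EV and at least 15.4-fold lower than in BRAF organoids (adjusted p = 2.67e-06 and 0.00275). On the slide that held both types the difference of selected line 3 from BRAF line 1 in base medium was -6.31 log2 units.

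Next to Cyp4b1, at chr4:115111580-115297465 (mm9), 4 of 4 fitted Cyp4a genes were higher in EV organoids in base than in ENSW medium. The log2 differences were 0.40 ± 0.15 for Cyp4a10, 0.56 ± 0.17 for Cyp4a12b, 0.46 ± 0.15 for Cyp4a31 and 1.60 ± 0.49 for Cyp4a14 (adjusted p = 0.0385, 0.018, 0.0235 and 0.0165), and each call was lost without EV line 3 in base medium (up to 0.188). Cyp4a14 was above background on 1 of 3 EV arrays in base medium and 0 of 3 in ENSW medium, so its rise was at least 1.9-fold. Cyp4a10, a fatty acid hydroxylase induced through Ppara, had levels of -3.10, -3.21 and -3.21 in EV, -2.52, -2.45 and -2.51 in BRAF and -2.25, -2.29 and -2.37 in selected lines in ENSW medium, with no overlap between EV and the others. The log2 differences from EV were 0.69 ± 0.15 (adjusted p = 0.0151) and 0.87 ± 0.15 (adjusted p = 0.0022). With the normexp background both were past the threshold no longer, and the former was lost without BRAF line 2 (0.0702). The probes of Cyp4a10 and Cyp4a31 share 44 of 47 overlapping bases. Cyp4v3, a fatty acid hydroxylase, rose in EV organoids in base medium by 3.88 ± 1.33 (adjusted p = 0.0302), with overlap between the groups (-5.61, -8.26 and -4.73 against -2.31, -4.91 and 0.26).

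**Figure D5:**
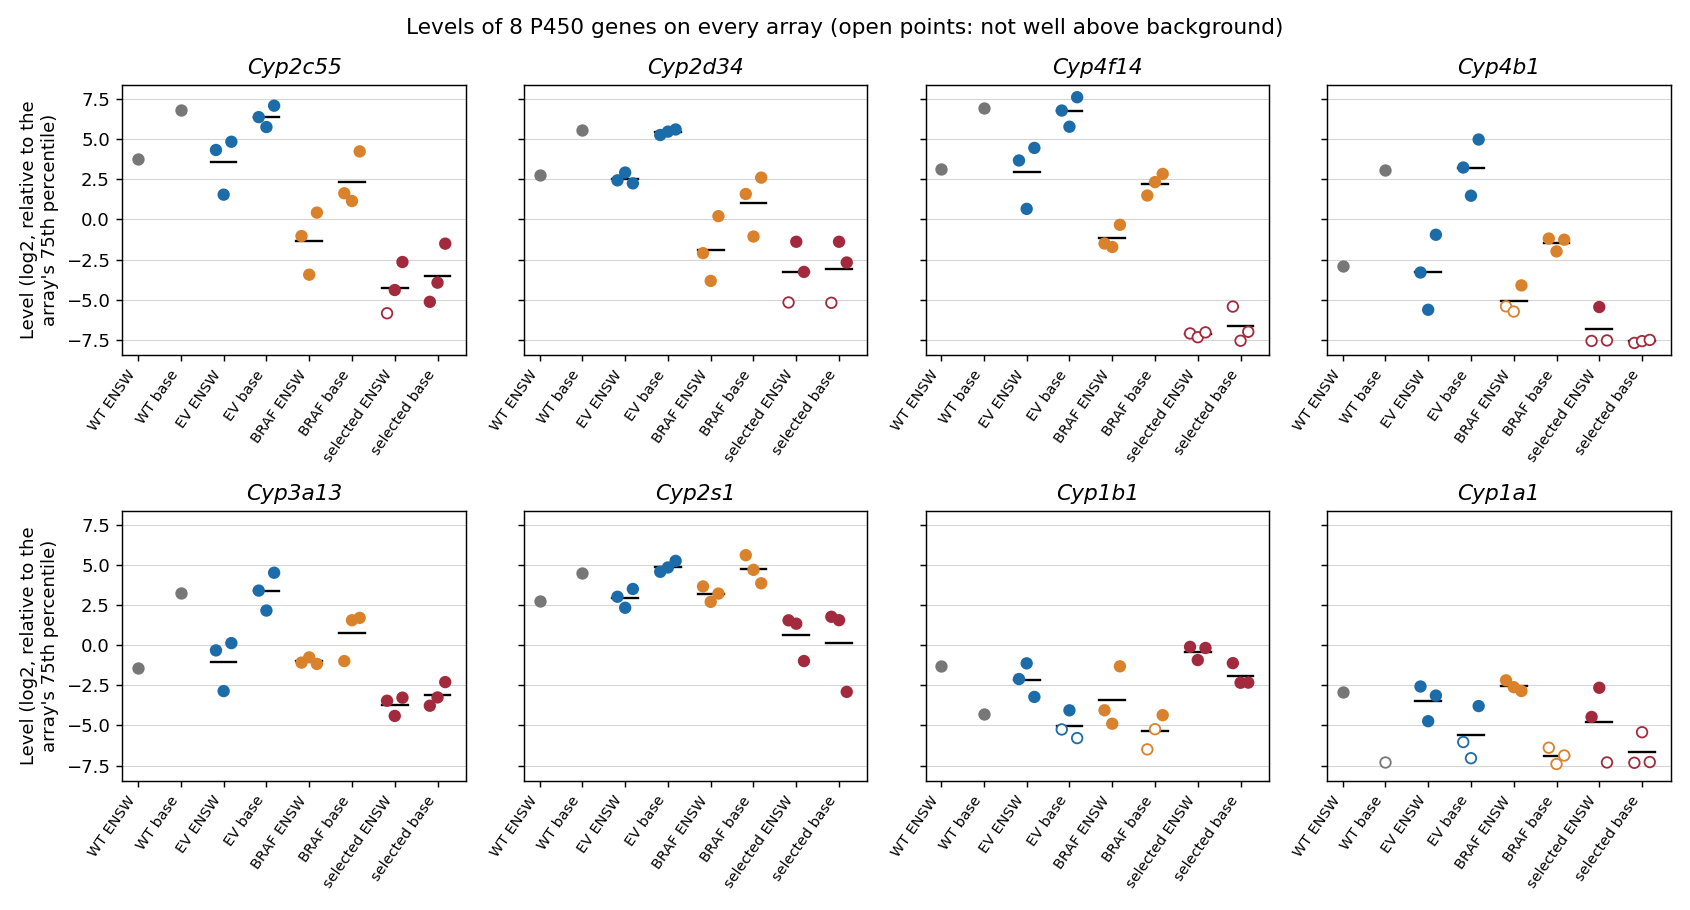
Levels (log2, less the array's 75th percentile) of 8 P450 genes on each of 20 arrays, by group on the x axis, with a bar at the mean of 3 lines and open points where the probe was not well above background. Cyp4f14 is highest in EV and WT organoids in base medium and below background on 6 of 6 selected arrays, while Cyp1b1 in base medium is highest in selected organoids.

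The WT cultures, with 1 array per medium and no replicate check, had higher levels in base than in ENSW medium for 53 of 58 members, and in ENSW medium 48 of the 58 WT levels lay within the range of the 3 EV lines. Of the 2 members that passed only with the WT arrays, Cyp2c23 reached -2.55 in EV line 3 in base medium and -5.24 in WT organoids in base medium, and Cyp4a12a ranged from -7.60 to -5.08 over the 20 arrays.

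Regulators of P450 genes were compared through a list of 16, of which 15 were measured. In base medium 10 were lower and 3 higher in selected than in EV organoids, where 23.2% of all genes were lower and 25% higher. The 3 higher were Ahr, Ppara (log2 0.48 ± 0.13, adjusted p = 0.00863) and Cebpb (1.98 ± 0.27, adjusted p = 4.52e-05). Nr1i2, the xenobiotic receptor PXR, had mean levels of 1.75 in EV, 0.20 in BRAF and -2.91 in selected organoids in base medium (selected minus EV log2 -4.66 ± 0.75, adjusted p = 0.000156). Hnf4a, a nuclear receptor of gut and liver epithelium, fell from 6.53 to 2.80 (-3.74 ± 0.62, adjusted p = 0.000204), and Vdr, the vitamin D receptor, from 4.62 to -2.06 (-6.68 ± 0.74, adjusted p = 7.68e-06). Nr1h4, the bile acid receptor FXR, was at 3.07 in EV organoids and not above background on any selected array. Rxra, the partner of Nr1i2, Vdr and Nr1h4, fell as well (-2.23 ± 0.29, adjusted p = 2.68e-05), and so did Nfe2l2 (-0.84 ± 0.19, adjusted p = 0.0021).

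Ahr went the other way, as Cyp1b1 did and Cyp1a1 did not. Its mean level was -0.17 in EV, 0.20 in BRAF and 1.85 in selected organoids in base medium (selected minus EV log2 2.02 ± 0.43, adjusted p = 0.00146; selected minus BRAF 1.65 ± 0.43, adjusted p = 0.0287). For Cyp1a1 the selected minus EV difference in base medium was log2 -1.05 ± 1.03 and was not called. A link of Ahr to Cyp1a1 or Cyp1b1 was not tested. Of 7 other genes known as Ahr targets, 6 were measured. In base medium 0 of them were higher and 2, Gsta1 (-6.81 ± 1.12, adjusted p = 0.000184) and Ugt1a6a, were lower in selected than in EV organoids. In ENSW medium Tiparp was higher (1.62 ± 0.39, adjusted p = 0.0157) and Gsta1 lower (-4.62 ± 1.12, adjusted p = 0.0167) in selected organoids than in EV.

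Of 9 redox partners, 9 were measured, and in EV organoids 3 rose and 3 fell in base medium, where 23.5% and 18.7% of all genes did. Por, the reductase that feeds electrons to these enzymes, rose there by log2 1.10 ± 0.21 (adjusted p = 0.000893) and was lower in base medium in selected organoids than in EV by -1.74 ± 0.21 (adjusted p = 1.64e-05). Its mean levels in base medium were 4.48 in EV, 3.86 in BRAF and 2.74 in selected organoids. Cyb5a, cytochrome b5, had the same order (selected minus EV -1.14 ± 0.17, adjusted p = 8.28e-05). Cyb5b was lower in that comparison too (-0.99 ± 0.19, adjusted p = 0.000624). Cyb5r1 (2.01 ± 0.33, adjusted p = 0.000181) and Pgrmc2 (0.99 ± 0.16, adjusted p = 0.000134) were higher. Cyb5r3, Pgrmc1, Fdx1 and Fdxr were not called, and of all genes 25% were higher and 23.2% lower. Of 13 genes of epoxide and eicosanoid metabolism, 11 were measured, with 2 higher and 3 lower in base medium in selected organoids than in EV, close to the shares of all genes (25% and 23.2%). Ephx2, the soluble epoxide hydrolase, was lower (-6.22 ± 1.80, adjusted p = 0.0107), and Ephx1, the microsomal one, was higher (1.08 ± 0.38, adjusted p = 0.0298). Of 12 genes of retinoid metabolism and signalling, 11 were measured, with 2 higher and 4 lower in that comparison.

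P450 genes outside families 1 to 4, which mostly act on sterols, bile acids, vitamin D and retinoids, were listed for comparison. Of 18 listed, 10 were in the fit. In EV organoids 1 was higher and 2 were lower in base medium, and 4 were higher and 0 lower in base medium in selected organoids than in EV, where all genes had 23.5% and 18.7% in the former and 25% and 23.2% in the latter comparison. No test set the counts of the 10 genes apart from these shares. The median log2 difference of the 10 was 0.30 in the latter comparison, where the 58 members of families 1 to 4 had -2.80. Cyp26b1, which clears retinoic acid, and is also on the retinoid list, was among the higher ones (2.25 ± 0.78, adjusted p = 0.0283).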

How the data were processed

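RNA of 20 organoid cultures was hybridised to 1-colour Agilent arrays. The deposited scanner files hold spot intensity, background-subtracted by Feature Extraction 10.7.3.1 per the file headers. A table of log2 values deposited by the authors had close but not equal distributions across arrays (medians 5.662 to 5.681, quantiles within 0.116) and the ranks of each array's median signal; its normalization is not stated in the file. The submitters' processing notes name limma. Control spots (1377 per array) and 2747 outlier-flagged spots over all arrays were left out, and 0 were saturated. The log2 processed signal less each array's 75th percentile was used, replicate spots were averaged, 26827 probes passed the background flag on 3 or more of 18 arrays, and the brightest probe stood for each of 21424 genes. Of 39429 probes, 26581 were named through RefSeq by accession, 2597 by symbol and 492 by an older symbol.

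Group means were fitted with limma 3.58.1 (R 4.3.3, 12 residual degrees of freedom), with Benjamini-Hochberg adjustment over all genes per contrast, and the script was tested on simulated data. Errors are SE of the unpaired fit, also where the p-value of a block stands beside them. Alternatives were normexp, quantile normalization, the authors' table, no filter, mean over probes, line, culture and slide blocks, and left-out arrays. Both media of a culture come from the same line, and their deviations from the group means correlated at r = 0.422 to 0.874, so the culture pairs them. Between types, same-numbered lines correlated at -0.08 to 0.37. Any measured member could be named; per-array values went first to the 4 called members of smallest adjusted p per direction and contrast and to the 3 brightest (Cyp2u1, Cyp2s1, Cyp2d11), and other genes came from lists. Members and lists were chosen with earlier results of these data known. Promoters were aligned with Biopython 1.88 in Python 3.11.15; pandas was version 2.3.3 and matplotlib 3.10.9.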

Additional observations from a re-analysis of the deposited data

Results flagged for a closer look

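The difference in medium response between selected and EV organoids passed the test (limma, adjusted p under 0.05) for 14 P450 genes, which is 24.1% of the 58 fitted members and compares with 24.2% of all genes in either direction. Each value is the base minus ENSW difference in selected organoids less that in EV organoids, in log2 units with its standard error. Cyp4b1 had -7.26 ± 1.45, Cyp4f13 -2.33 ± 0.48 and Cyp4f17 -2.18 ± 0.46. Among Cyp2d genes, Cyp2d9 had -4.15 ± 1.27, Cyp2d10 -4.12 ± 1.06, Cyp2d11 -2.02 ± 0.53 and Cyp2d22 -2.95 ± 0.85. Among Cyp2j genes, Cyp2j6 had -2.40 ± 0.60, Cyp2j8 -2.32 ± 0.59 and Cyp2j13 -2.19 ± 0.60. In family 3, Cyp3a13 had -3.77 ± 1.18 and Cyp3a44 -4.55 ± 1.37. Among Cyp2c genes, Cyp2c54 had -3.26 ± 1.06 and Cyp2c38 -0.58 ± 0.19. Cyp2c54 and Cyp3a44 were below background on most arrays outside EV organoids in base medium, so their values rest on few measured signals. Both passed the filter only with EV arrays counted, so a lower response in selected organoids was built in, and these calls lend no support.

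Of these 14, 8 held without any 1 array. Cyp2c38, Cyp2c54, Cyp2d22 and Cyp3a13 were lost most clearly without EV line 3 in base medium (adjusted p = 0.0927, 0.108, 0.061 and 0.0912). Cyp2d9 was lost without selected line 2 in ENSW medium (0.0763), and Cyp3a44 without selected line 3 in ENSW medium (0.0634).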

How the results depend on the processing

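The number of P450 members called was within 1.5 times the reported one under the alternatives tried, except as follows. No direction of a named gene reversed in 167 gene-by-contrast calls, and 80 calls held under every alternative. Leaving out 1 array at a time gave 21 to 36 members for the EV difference between media, 0 to 2 for BRAF and 0 for selected organoids. It gave 0 to 14 for BRAF against EV in ENSW medium and 19 to 29 in base medium, 9 to 23 and 31 to 33 for selected against EV, and 1 to 2 and 4 to 15 for selected against BRAF. For the difference in response it gave 0 to 1 (BRAF against EV), 9 to 19 (selected against EV) and 0 (selected against BRAF).

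For the BRAF difference between media (0 reported), 2 members were called with the normexp background, 2 with the authors' deposited values, 1 with the mean over probes, 2 with the slide as a random block and 1 with it as a fixed block. With normexp, BRAF against EV and selected against EV in ENSW medium gave 10 and 12, and the difference in response between BRAF and EV gave 5 (1 with the authors' values). The 1 member called between selected and BRAF in ENSW medium became 0 with normexp and with the authors' values. Without both arrays of selected line 1, selected against EV in ENSW medium gave 15, selected against BRAF in base medium 7 and the response of selected against EV 8. The causes of these changes were not tested.

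With the line number as a replicate block, 3 members were called for the BRAF difference between media and 2 for the response of BRAF against EV, in place of 0, and no other count moved by over 1.5 times. The block ended 2 calls of the unpaired fit. With the culture as a random block the BRAF difference between media gave 20 members, and the differences in response gave 15 (BRAF against EV), 40 (selected against EV) and 1 (selected against BRAF). Values of dim probes carry only bounds, and EV organoids share no slide with the other types.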
